A study of Homo sapiens with 15 samples.

Results

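The IDH2R140W line was compared with the Parental line of TF-1, an established line from a human erythroleukaemia, which expresses red cell, mast cell and myeloid genes and depends on a cytokine such as GM-CSF for growth. The comparison used the 6 libraries whose labels give these genotypes, 3 of each, out of 15 poly(A) RNA libraries in 5 groups. IDH2R140W cells carried a base-edited IDH2 gene, a change of single bases made without cutting both DNA strands, and grew without GM-CSF. Parental cells were unedited and grew with 2 ng/ml GM-CSF, so genotype and medium cannot be told apart in this comparison. The other 9 libraries, 3 each of the edited lines IDH1R132H, IDH2R140Q and IDH2R172K, also grew without GM-CSF and gave a second comparison in which the medium was shared. All groups shared RPMI-1640 with serum and antibiotics, and the labels do not say whether an edited line was 1 clone or how many alleles carried the edit. Differences between lines therefore cannot be told apart from differences between clones.

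IDH2 is the mitochondrial enzyme that turns isocitrate into 2-oxoglutarate. Substitutions of arginine 140 or 172 occur in acute myeloid leukaemia and give the enzyme a new activity that makes 2-hydroxyglutarate, which can inhibit dioxygenases that use 2-oxoglutarate, among them the TET and JmjC enzymes that act on DNA and histone methylation. The best known substitution of residue 140 is to glutamine, whereas the line described here has tryptophan at that place. The edit itself was not checked, since TPM carries no allele.

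Expression was given as TPM, a transcript abundance scaled for transcript length and for the library total, which keeps no read depth. Between 12796 and 13223 symbols reached 1 TPM in each of the 6. Genes at 1 TPM or more in at least 3 of the 15 libraries were tested and are called measured. A gene high in 1 group alone can pass that filter through its 3 libraries. Risen, fallen and changed are used of genes with a limma adjusted p under 0.05 and a difference of at least 1 either way in log2(TPM + 1), a scale that understates changes of genes at low level. Across genes, which are not independent, all libraries were closest to one of their own genotype. The share of TPM taken by ribosomal protein genes was 21.1% for Parental replicate 2 and 22.1% for IDH2R140W replicate 3. It was between 16.8% and 18.6% for the remaining 4, so some results are also given without those 2 libraries. The labels do not say that replicates were separate cultures. The p-values therefore rest on the spread of 3 libraries a group, and that spread may be technical. In bulk RNA, fewer cells of a type and less RNA per cell cannot be told apart. Of 14 genes that mark TF-1, 11 were measured, among them CD34, CD33, KIT, EPOR and KLF1. The other 3, GATA1, CSF2RA and IL3RA, were listed at 0 in all 15 libraries, as were genes every cell uses such as TPI1 and PGK1, so a 0 in this table can be a failed estimate.

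Of 14881 genes tested 711 changed in IDH2R140W against Parental, which is 4.78% of them, with 399 higher (2.68%) and 312 lower (2.10%). The median gene differed by 0.03, and the 3 libraries of one group did not overlap those of the other in 31.4% of genes. Against the mean of the other 3 edited lines 603 genes changed (4.05%), with 168 higher (1.13%) and 435 lower (2.92%), and the median gene was at -0.14. Line by line, the changed genes were 7.86% of those tested against IDH1R132H, 5.69% against IDH2R140Q and 6.86% against IDH2R172K. After median-ratio scaling the second split was 220 higher and 331 lower. Genes that passed one way against that mean and against each of the 3 lines numbered 175 (1.18%), of which 50 were higher (0.336%) and 125 lower (0.840%). Both comparisons use the same IDH2R140W libraries and are given side by side. The shares of all genes given here stand beside every list count below, and no list was tested against them.

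**Figure D1:**
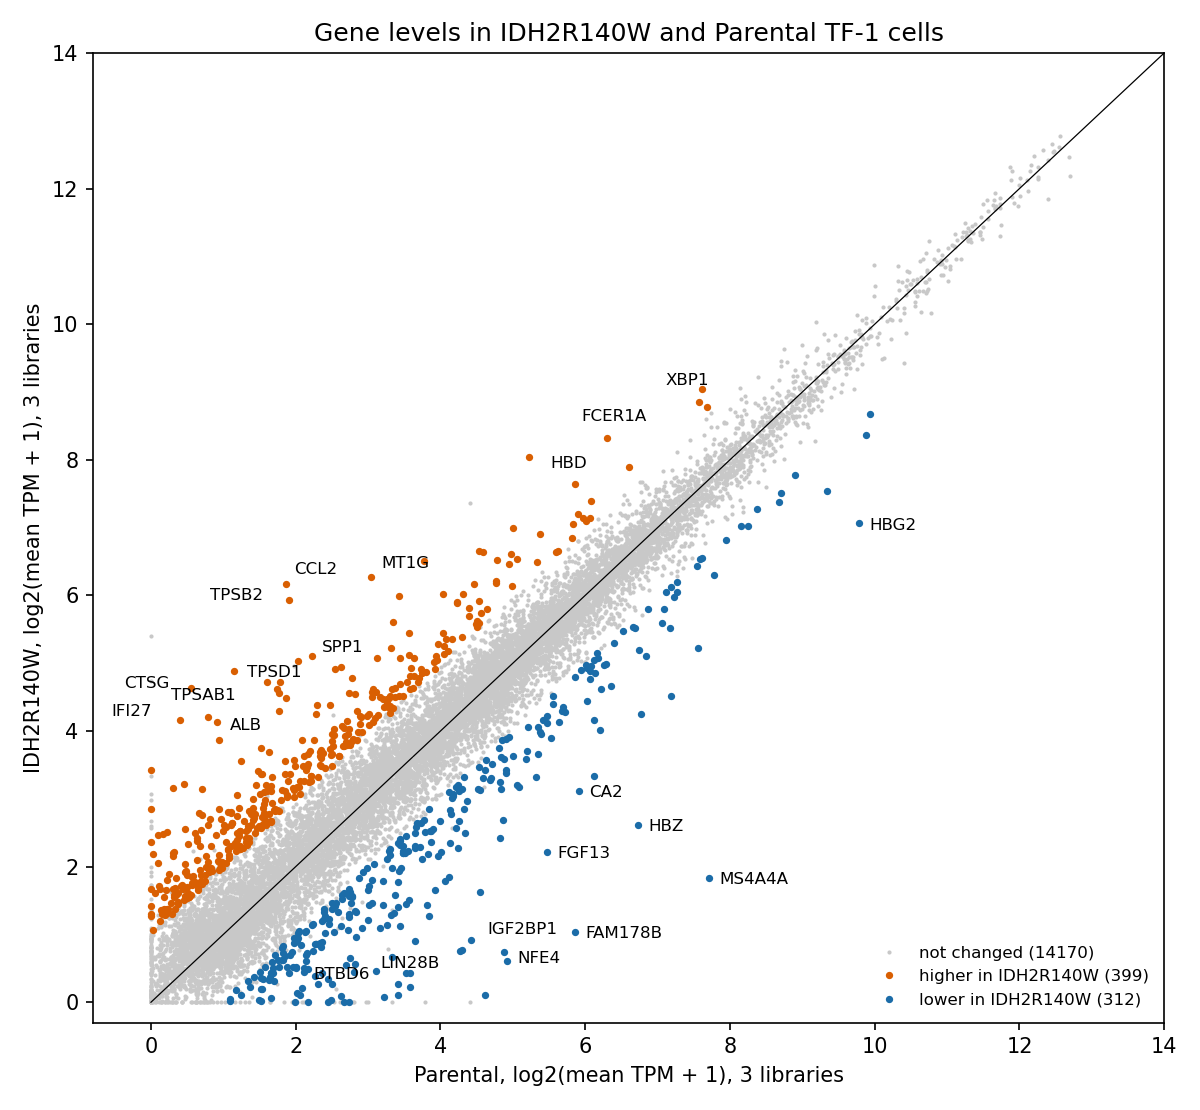
Mean level of each tested gene in Parental (x axis) and IDH2R140W (y axis), both as log2(mean TPM + 1) over 3 libraries, with the 399 genes called higher in orange, the 312 called lower in blue and the diagonal marking equal levels. Chemokine, tryptase and interferon genes lie far above the diagonal, and MS4A4A, FAM178B, HBZ and fetal-stage genes such as IGF2BP1 and LIN28B lie far below it.

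The edited gene and its cytosolic paralogue came first. IDH2 stood at 52.2, 49.9 and 56.2 TPM in Parental and at 46.8, 47.9 and 41.7 TPM in IDH2R140W. The groups did not overlap, but the log2 difference of -0.21 missed the threshold (limma adjusted p = 0.0745). IDH1 stood at 66.3, 70.7 and 73.9 TPM in Parental and at 36.5, 36.4 and 30.9 in IDH2R140W, a fall of 1.00 on the log2 scale (SE 0.09, adjusted p = 3.31e-06). All IDH2R140W libraries lay below all Parental libraries. The fall is at the 2-fold limit and went under it with IDH2R140W replicate 3 (-0.93) or Parental replicate 3 (-0.97) left out. It was not particular to this line, since IDH1 had means of 36.8 TPM in IDH1R132H and 37.7 in IDH2R172K, with 60.3 in IDH2R140Q. IDH2 had means of 52.3, 74.7 and 31.8 TPM in IDH1R132H, IDH2R140Q and IDH2R172K. Of the 10 measured genes in a list of IDH enzymes and enzymes that handle 2-hydroxyglutarate, IDH1 was the only one called. Among 8 TET and DNMT genes DNMT3B fell, and among 24 JmjC and other dioxygenases P4HA2 fell. Of all genes tested 2.10% fell, and single calls of this kind say nothing about the lists as a whole. Limma gave 0 calls among 21 TCA cycle and glutaminase genes, 25 glycolysis and hypoxia genes, 36 mitosis genes and 26 genes of DNA replication. At an unadjusted p under 0.05 and no limit of size, 9, 13, 21 and 11 genes of these lists differed, in that order, beside 34.9% of all 14881 genes tested. These counts describe the lists and were not tested against that share. The 21 mitosis genes were lower, as were 15.4% of all genes at that p, with a list median of -0.21.

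Haemoglobin is built from alpha-like and beta-like chains, and the beta-like genes are used in turn: HBE1 in the embryo, the gamma genes HBG1 and HBG2 in the fetus, and HBB and HBD in the adult. HBZ is the embryonic alpha-like chain. LIN28B and the IGF2BP proteins are RNA-binding proteins of the fetal blood programme, and NFE4 was described as a factor that favours gamma globin. In IDH2R140W cells the total of globin transcripts was lower than in Parental and its make-up was different, with less gamma and more HBD.

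HBG2 stood at 706, 1134 and 801 TPM in Parental and at 113, 127 and 158 in IDH2R140W. Every IDH2R140W library was far below every Parental library, and HBG2 fell by 2.71 on the log2 scale (SE 0.20, adjusted p = 3.02e-07). HBD moved the other way, from 52.4, 60 and 59.2 TPM to 184, 187 and 224 (log2 difference 1.77, adjusted p = 1.72e-08). HBB stood at 59.7, 75.6 and 71.8 TPM in Parental and 102, 102 and 134 in IDH2R140W, groups that did not overlap, but its difference of 0.70 was under 2-fold (adjusted p = 0.0314). Of 9 measured globins 6 fell and 1 rose, with a median difference of -1.52 against 0.03 for all genes. HBG1 and HBG2, and HBA1 and HBA2, are near-identical pairs, so the split within each pair is uncertain and sums are used next.

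The gamma genes together made 86.5%, 89.8% and 86.5% of beta-like globin TPM in the Parental libraries and 31.3%, 33.1% and 33.7% in IDH2R140W. The group means were 87.6% ± 1.89 and 32.7% ± 1.28 (SD, n = 3), and the groups were far apart (two-sided exact permutation p = 0.1, the smallest that 3 against 3 libraries allow). HBB and HBD together rose from a share of 11.1% ± 1.72 to 66.1% ± 1.15. The summed beta-like level was 1165 ± 285 TPM in Parental and 470.8 ± 67.6 in IDH2R140W. HBZ made 6.21% ± 0.346 of alpha-like globin in Parental and 1.00% ± 0.440 in IDH2R140W. Among the lines grown without GM-CSF, the gamma share of single libraries was 25.1% to 30.6% in IDH1R132H, 9.96% to 14.8% in IDH2R140Q and 85.8% to 87.8% in IDH2R172K.

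Within that medium IDH2R140W stood out by its adult globins. HBB was at 113 ± 18.7 TPM (SD, n = 3) in IDH2R140W against 1.31 ± 0.875 in IDH1R132H, 4.76 ± 0.353 in IDH2R140Q and 41.6 ± 3.52 in IDH2R172K. It passed against each line, with 3.80 on the log2 scale against their mean (limma adjusted p = 2.13e-09). HBD also passed against each of the 3, at 1.77 (adjusted p = 1.53e-09). HBG2 did not go one way, being 2.43 above IDH1R132H, 4.24 above IDH2R140Q and 2.35 below IDH2R172K on the log2 scale.

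LIN28B, IGF2BP1, IGF2BP2 and NFE4 were nearly lost from IDH2R140W. LIN28B (chr6:104936616-105083332) stood at 12.4, 8.52 and 11.9 TPM in Parental and at 0.19, 0.15 and 0.18 in IDH2R140W, a fall of 3.33 on the log2 scale (SE 0.13, adjusted p = 1.19e-09). IGF2BP1 (chr17:48997412-49055650) stood at 43.0, 15.3 and 27.0 TPM in Parental and at 1.05, 0.64 and 0.30 in IDH2R140W, a fall of 4.05 (SE 0.28, adjusted p = 1.92e-07). Parental libraries differed widely in IGF2BP1, yet the lowest was far above the highest IDH2R140W library. NFE4 (chr7:102973437-102988856) went from 27.1, 34.5 and 26 TPM to 0.15, 0.66 and 0.78, a fall of 4.32 (SE 0.17, adjusted p = 1.29e-09). IGF2BP2 went from 5.49 ± 1.44 to 0.470 ± 0.382 TPM (SD, n = 3). Each of these genes was also lower in IDH2R140W than in each of the other edited lines, by 3.44 for LIN28B, 3.99 for IGF2BP1, 3.22 for IGF2BP2 and 3.87 for NFE4 against their mean (all adjusted p at or below 1.83e-08). LIN28B moved in opposite directions in edited lines: it was at 48.0 ± 3.41 TPM in IDH1R132H, above the 10.9 ± 2.11 of Parental, with 3.19 ± 0.162 in IDH2R140Q and 9.17 ± 0.483 in IDH2R172K. BCL11A, a repressor of gamma globin, was at 5.63 ± 1.70 TPM in Parental and 4.66 ± 1.05 in IDH2R140W and did not pass (adjusted p = 0.505). IGF2BP3, the third member of its family, was at 25.6 ± 7.95 and 16.1 ± 3.10 TPM, a difference under 2-fold.

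**Figure D2:**
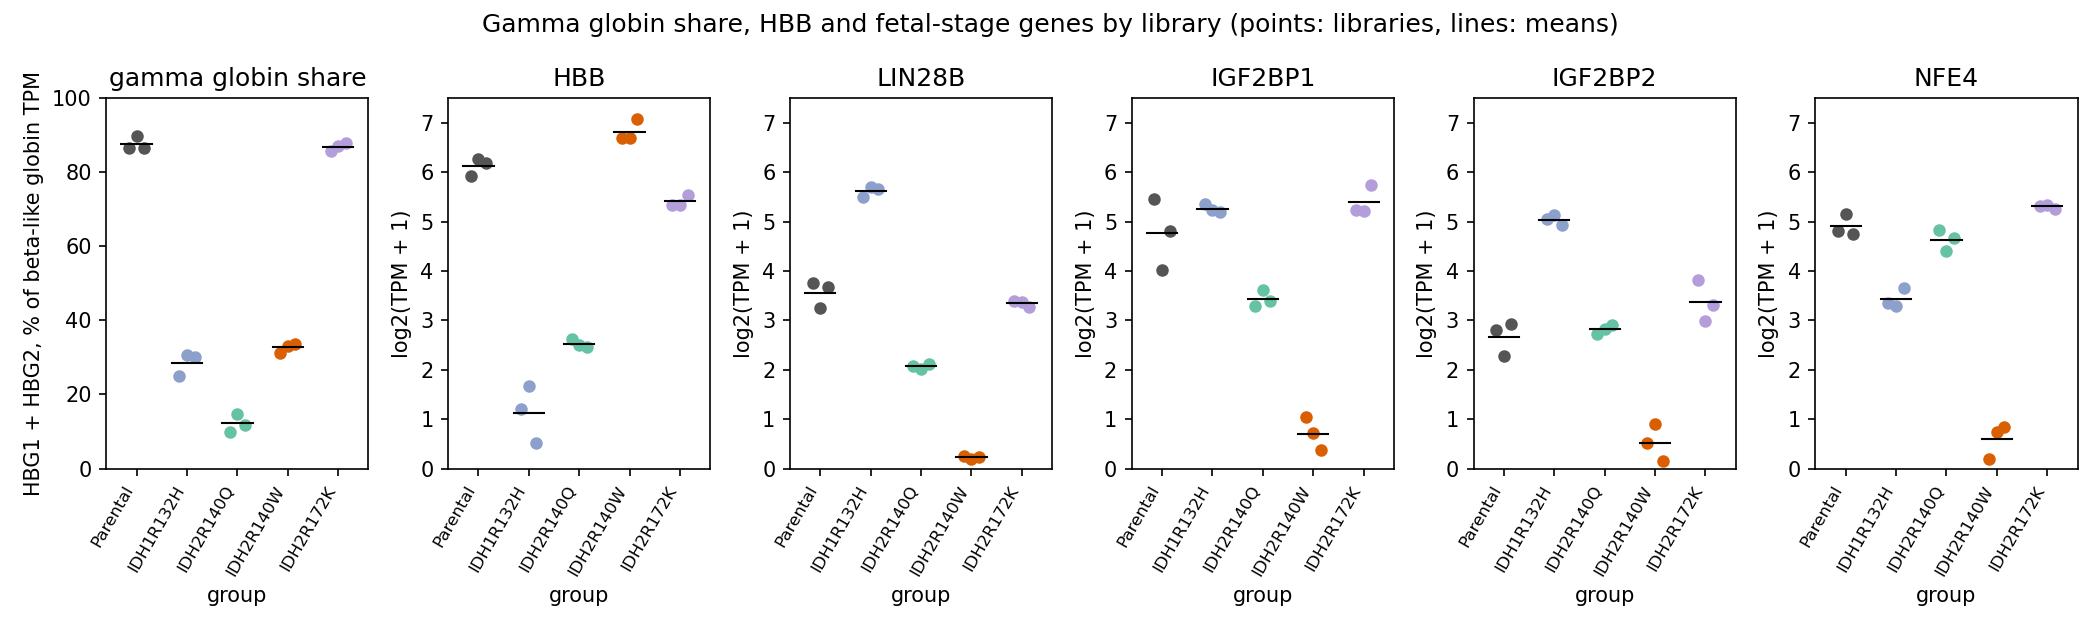
Share of gamma globin among beta-like globin TPM (left, percent) and log2(TPM + 1) of HBB, LIN28B, IGF2BP1, IGF2BP2 and NFE4 in each of the 5 groups, with 1 point per library and a line at the mean of 3. IDH2R140W has the highest HBB and the lowest level of the other 4 genes, whereas its gamma share of 32.7% lies near that of IDH1R132H.

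Other red cell genes moved less. Of 26 measured red cell membrane and iron uptake genes 6 fell, with a median of -0.30, beside 2.10% and 0.03 for all genes. CA2, a carbonic anhydrase, fell from 59.1 ± 2.59 to 7.65 ± 0.560 TPM and CA1 from 135 ± 12.2 to 54.9 ± 3.87. The calls of GYPE, AHSP and AQP1 each failed when 1 library was left out (IDH2R140W replicate 1 for AHSP, IDH2R140W replicate 3 or Parental replicate 1 for the other two). Of 17 haem synthesis genes ALAS2, the erythroid form of the first enzyme, and TMEM14C, a porphyrin carrier, fell. Among 12 erythroid transcription factors limma gave 0 calls. At an unadjusted p under 0.05, which 34.9% of all genes reached, 1 was higher and 6 were lower. EPOR, the erythropoietin receptor, was at 23.5 ± 1.31 and 22.4 ± 1.73 TPM.

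Mast cells and basophils store proteases such as tryptase and carry the IgE receptor, whose alpha chain is FCER1A, and the interleukin-33 receptor IL1RL1. Of 37 genes in a list of mast cell, basophil and eosinophil genes 26 passed the filter on low values, of which 14 rose and 1 fell in IDH2R140W against Parental. Their median difference was 1.31 against 0.03 for all genes, of which 2.68% rose and 2.10% fell. A gene can pass this filter through the IDH2R140W libraries alone, so these counts are a description. Where 5 TPM in 3 libraries was required, 12 of 22 genes rose and 0 fell, with the same limit. Tryptases led the list, and they were also what set IDH2R140W apart from the other edited lines.

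TPSB2 (chr16:1227272-1230184) stood at 2.73, 3.13 and 2.44 TPM in Parental and at 53.0, 55.3 and 72.1 in IDH2R140W, a rise of 4.01 on the log2 scale (SE 0.18, adjusted p = 3.66e-09). TPSAB1 (chr16:1240696-1242554) went from 0.96, 0.85 and 0.39 TPM to 17.8, 16.7 and 18.1. TPSD1 (chr16:1256059-1258998) went from 1.43, 0.38 and 1.84 TPM to 28.1, 31.0 and 26.8. No library of one group came near the other for any of these neighbouring genes, which are close copies, so the split of reads among them is uncertain. In the other edited lines the 3 tryptases stayed between means of 0.853 and 4.64 TPM, and the difference from their mean was 3.81 for TPSB2, 3.25 for TPSAB1 and 3.26 for TPSD1 (adjusted p from 3.88e-10 to 1.39e-07). TPSG1, the transmembrane tryptase, was much lower, at 1.58 ± 0.370 TPM in IDH2R140W and 0.153 ± 0.15 in Parental.

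IL1RL1 stood at 0.74, 0.92 and 1.08 TPM in Parental and at 14.9, 16.7 and 9.21 in IDH2R140W (log2 difference 2.90, adjusted p = 1.54e-06). ENPP3, the ectoenzyme CD203c of activated basophils, went from 2.33, 2.27 and 2.73 TPM to 32.7, 24.1 and 19.4 (2.91, adjusted p = 2.46e-06). In both, the groups were well apart, and both also passed against each other edited line, as did KIT, the stem cell factor receptor, which was under 2-fold above Parental. KIT stood at 9.82, 6.73 and 8.96 TPM in Parental and at 16, 15.5 and 10.7 in IDH2R140W. Against that, FCER1A rose from 77.6 ± 7.91 to 319 ± 13.7 TPM but was at 298 ± 14.3 in IDH1R132H, 637 ± 40.6 in IDH2R140Q and 248 ± 3.57 in IDH2R172K. Also called higher than Parental but not than the mean of the other lines were LTC4S and ALOX5AP, which serve leukotriene synthesis, HDC, which makes histamine, CPA3, CLC and SIGLEC6.

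Not all of the mast cell and basophil set was raised. MS4A2, the beta chain of the IgE receptor, was at 0.413 ± 0.171 TPM in Parental and 0.477 ± 0.124 in IDH2R140W, against 33.6 ± 0.664 in IDH1R132H. GATA2 and MITF, transcription factors of mast cells, stood at 353 ± 31.6 and 2.91 ± 0.927 TPM in Parental and at 481 ± 23.5 and 3.14 ± 1.17 in IDH2R140W, both under 2-fold. The mast cell chymase CMA1 and the eosinophil genes EPX, RNASE2 and RNASE3 were below the filter. Against the other edited lines 9 genes of the list were higher and 4 lower, beside 1.13% and 2.92% of all genes. The lower ones were MS4A3, MS4A2, SIGLEC8 and CCR3. Neutrophil granule genes showed no common direction: CTSG, which mast cells also store, rose from 0.43, 0.97 and 0 to 21.3, 22.6 and 28.1 TPM, while MPO fell and ELANE, PRTN3 and AZU1 were below the filter. CTSG was raised in the other edited lines too, with means of 32.5 (IDH1R132H), 11.0 (IDH2R140Q) and 57.7 TPM (IDH2R172K).

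**Figure D3:**
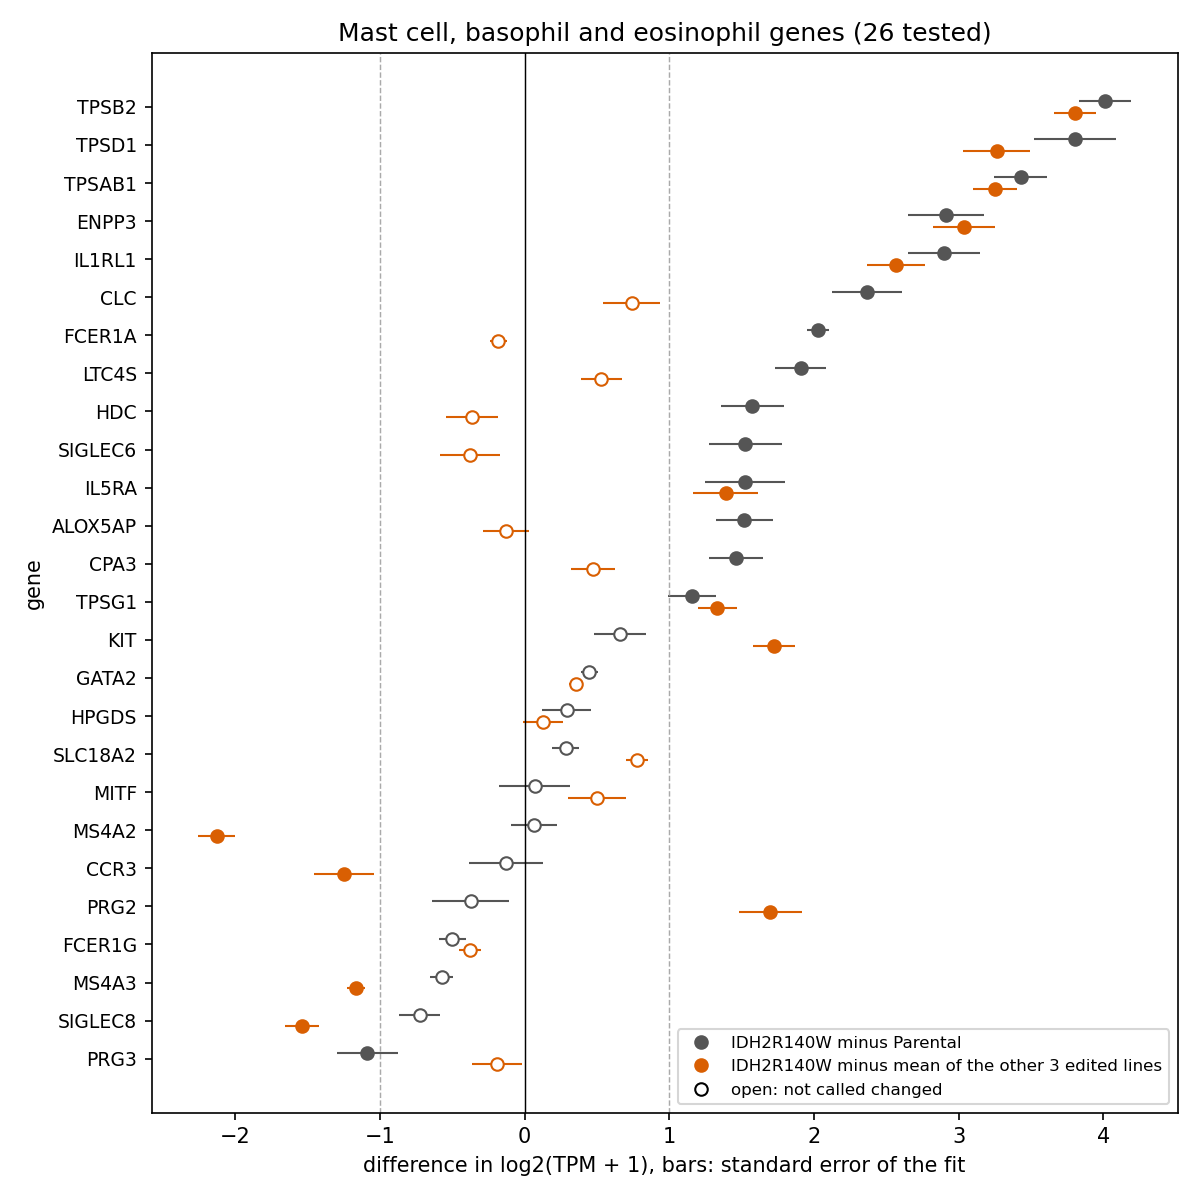
Difference in log2(TPM + 1) of IDH2R140W from Parental (grey) and from the mean of the other 3 edited lines (orange) for the 26 measured mast cell, basophil and eosinophil genes, with bars for the standard error of the fit and filled points where a gene was called changed. TPSB2, TPSD1, TPSAB1, ENPP3 and IL1RL1 pass in both comparisons, while FCER1A, LTC4S and HDC pass against Parental alone.

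The MS4A genes encode membrane proteins of blood cells, and they lie side by side on chromosome 11. MS4A4A (chr11:60185702-60317944), best known from macrophages, had the largest fall in the comparison under the rule for named genes. It stood at 196, 228 and 199 TPM in Parental and at 1.40, 3.95 and 2.38 in IDH2R140W, a fall of 5.92 on the log2 scale (SE 0.20, adjusted p = 4.28e-10). All 3 libraries were close to 0. In the other edited lines it was at 75.7 ± 3.13, 50.7 ± 5.0 and 30.2 ± 5.53 TPM, in IDH1R132H, IDH2R140Q and IDH2R172K in that order, so IDH2R140W was lower than each. Its neighbour MS4A6A fell from 145 ± 7.96 to 68.8 ± 7.05 TPM, and MS4A3 was at 114 ± 7.44 and 76.0 ± 4.53, under 2-fold.

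Interferon-stimulated genes are induced through the receptors and STAT factors that answer type I interferon, and the OAS proteins and IFIH1 sense double-stranded RNA. Of 55 measured interferon-stimulated genes 14 rose in IDH2R140W against Parental, beside 2.68% of all genes. The list median was 0.48, beside 0.03 for all genes. Lower at an unadjusted p under 0.05 were 4 of the list, each under 2-fold, beside 15.4% of all genes. Of 15 RNA-sensing genes 4 rose, namely OAS1, OAS3, OASL and IFIH1, with a median of 0.57. The second count was 7 with a pseudocount of 0.1. Among 10 measured interferon ligands, receptors and signalling genes limma gave 0 calls. At an unadjusted p under 0.05, beside 34.9% of all genes, 4 were higher and 2 lower. Many promoters of such genes hold a repeat that binds STAT and IRF factors, so the RefSeq promoters (250 bases before to 50 after the gene start, GRCh38.p14) were searched on both strands for GAAA-NN-GAAA, where N is any base. Of the 18 changed genes 14 had a promoter in the table, and 10 of these held a match, as did 56.6% of all measured genes of both lists that had a promoter (30 of 53) and 3.57% of all 35116 promoters. Those of 3 strongly raised genes are shown with each match in capitals, where the letters of a minus-strand match read TTTC-NN-TTTC.
IFI6 promoter, chr1:27672143-27672442, minus strand: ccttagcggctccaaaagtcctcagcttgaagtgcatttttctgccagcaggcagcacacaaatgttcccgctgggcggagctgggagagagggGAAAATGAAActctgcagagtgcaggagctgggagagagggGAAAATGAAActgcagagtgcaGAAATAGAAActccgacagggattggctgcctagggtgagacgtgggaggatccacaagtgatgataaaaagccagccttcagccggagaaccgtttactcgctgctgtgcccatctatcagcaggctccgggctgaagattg
IFI27 promoter, chr14:94110486-94110785, plus strand: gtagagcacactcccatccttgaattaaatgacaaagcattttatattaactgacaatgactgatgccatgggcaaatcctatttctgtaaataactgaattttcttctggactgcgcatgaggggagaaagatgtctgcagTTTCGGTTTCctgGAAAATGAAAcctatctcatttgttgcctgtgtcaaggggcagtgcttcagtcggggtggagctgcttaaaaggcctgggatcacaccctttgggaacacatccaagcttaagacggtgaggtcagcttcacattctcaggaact
ISG15 promoter, chr1:1013247-1013546, plus strand: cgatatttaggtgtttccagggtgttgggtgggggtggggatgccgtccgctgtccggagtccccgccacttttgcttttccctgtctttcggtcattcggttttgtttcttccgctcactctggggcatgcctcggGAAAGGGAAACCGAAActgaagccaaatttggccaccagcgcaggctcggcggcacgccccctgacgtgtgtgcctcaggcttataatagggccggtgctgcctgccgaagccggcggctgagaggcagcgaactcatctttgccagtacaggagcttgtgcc
IFI6 has 3 matches, and IFI27 and ISG15 have 2 each, overlapping in ISG15. The promoter of OAS1, also strongly raised, held no match and is not shown, so the promoters shown are all ones with a match. The IFI27 window follows the RefSeq start of the gene. It lies inside the gene span given below, which comes from another annotation with an earlier start. A match describes the letters only.

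IFI6 stood at 32.8, 39.7 and 36.7 TPM in Parental and at 249, 244 and 294 in IDH2R140W, a rise of 2.81 on the log2 scale (SE 0.08, adjusted p = 5.14e-11). ISG15, the ubiquitin-like protein, went from 17.5, 27.9 and 21.0 TPM to 87.1, 97.7 and 116 (2.15, adjusted p = 6.52e-08). Both were far outside the Parental range. OAS1 was listed at 0 in all 3 Parental libraries and at 10.7, 10.8 and 7.75 TPM in IDH2R140W. IRF7 and IRF9, transcription factors of the response, rose from 7.99 ± 1.21 to 21.6 ± 1.76 and from 9.88 ± 3.76 to 32.6 ± 8.98 TPM. STAT2, a signal carrier of the response, was at 20.9 ± 3.33 TPM in IDH2R140W against 15.9 ± 2.07 in Parental, under 2-fold. IFIT1 was also called higher than Parental, but not without Parental replicate 2 and IDH2R140W replicate 3 together. The calls of IFI35, SP100, SAMD9 and TRIM21 each failed when 1 library was left out (Parental replicate 2 for IFI35, SP100 and SAMD9, and Parental replicate 3 for TRIM21, among others).

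Against the other edited lines IFI27 alone of the 55 was called, as higher, beside 1.13% of all genes. IFI27 (chr14:94104836-94116698) stood at 0, 0.56 and 0.39 TPM in Parental and at 15, 15 and 20.8 in IDH2R140W, with means of 0.263, 1.34 and 1.04 in IDH1R132H, IDH2R140Q and IDH2R172K. It was 3.30 higher than their mean on the log2 scale (adjusted p = 1.49e-08) and passed against each. IFI6 was at 417 ± 14.4 TPM in IDH2R140Q, above the 262 ± 27.8 of IDH2R140W, and at 123 ± 2.37 in IDH1R132H and 148 ± 1.87 in IDH2R172K. HLA-B and HLA-C, class I genes, rose from 4.81 ± 0.722 to 29.2 ± 3.15 and from 30.6 ± 1.03 to 96.5 ± 6.27 TPM, and 4 class II genes led by HLA-DQA1 and HLA-DRA also rose. Among the class II genes the call of HLA-DQB1 failed without IDH2R140W replicate 3, alone or together with Parental replicate 2. HLA genes are polymorphic close copies that mostly lie on several rows of the table. Leaving out symbols on more than 1 row left no class I rise among the 9 genes still tested by limma, and 1 class II rise.

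**Figure D4:**
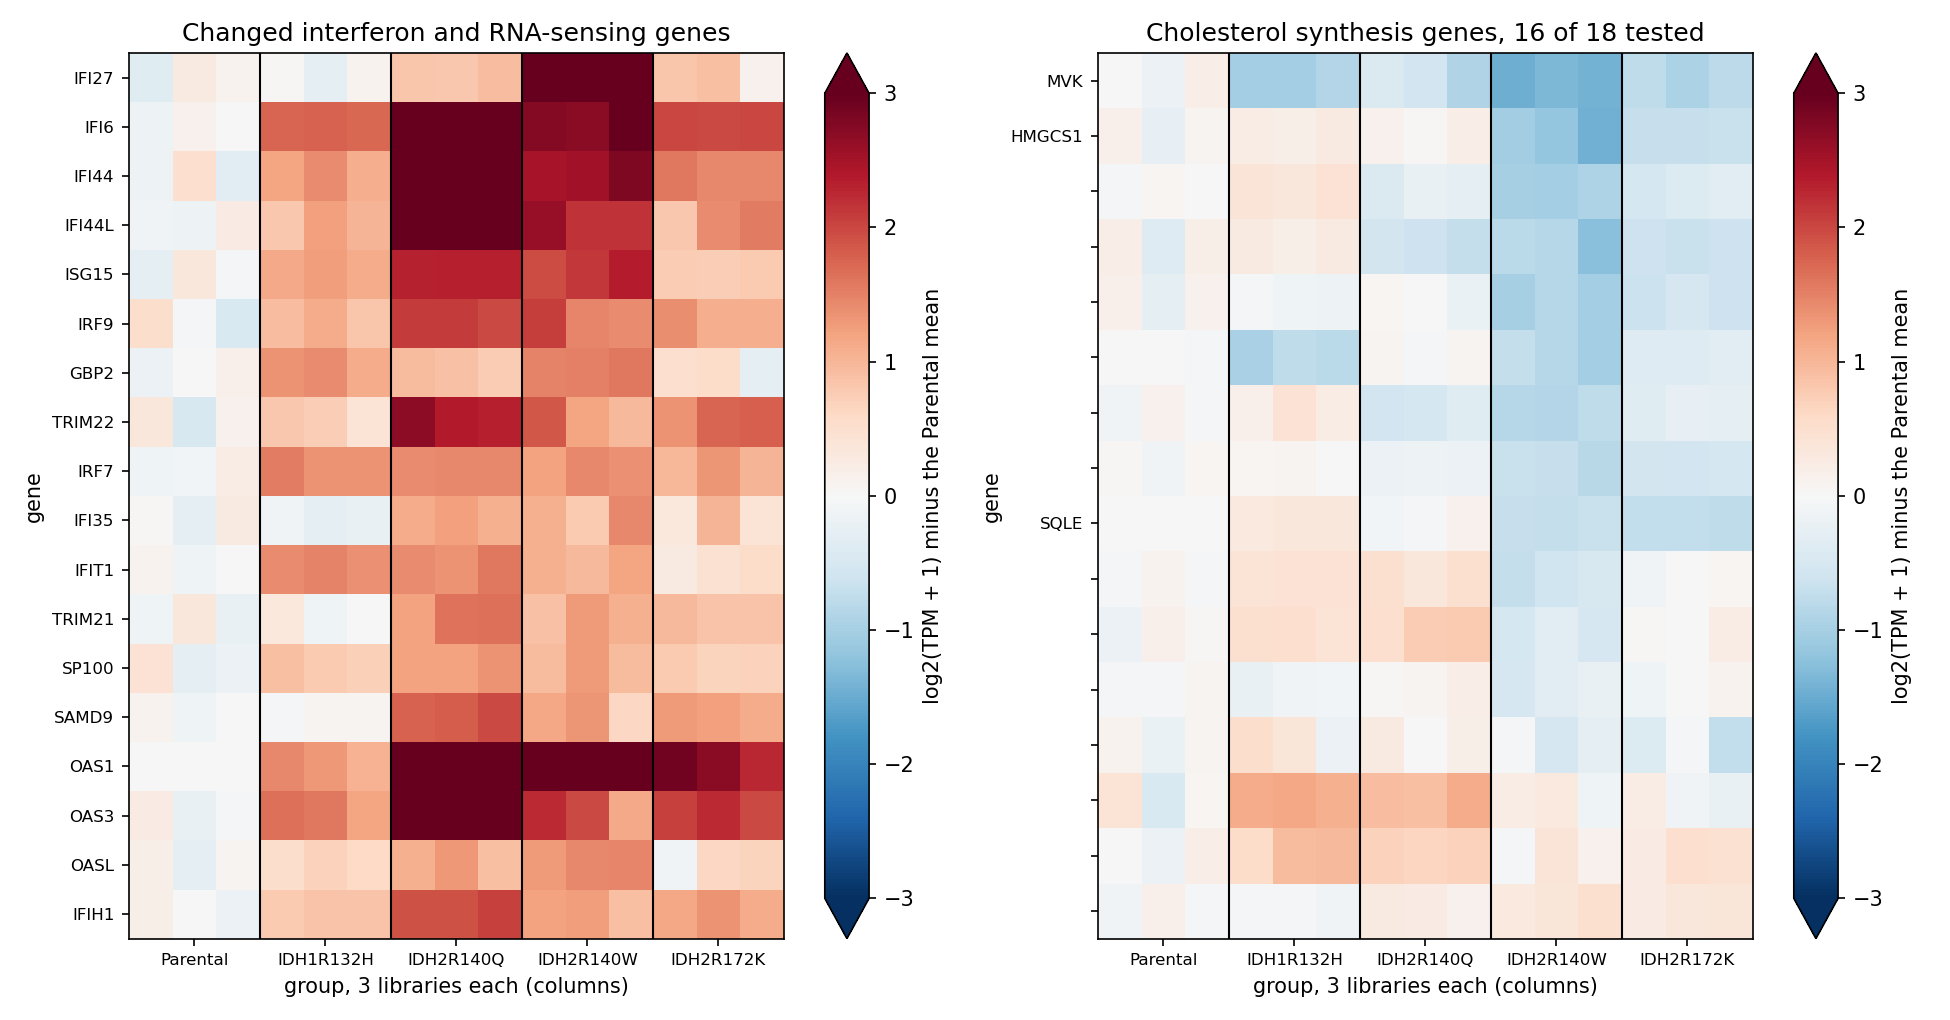
Each library's log2(TPM + 1) minus the Parental mean, from blue (lower) to red (higher) and capped at 3, for the 18 changed interferon and RNA-sensing genes (left) and 16 of the 18 measured cholesterol synthesis genes (right, with row names for genes the text describes), with 3 columns per group. The interferon genes are raised in IDH2R140W and mostly more so in IDH2R140Q, while IFI27 is highest in IDH2R140W, and most of the cholesterol genes drawn lie below the Parental mean in IDH2R140W.

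Cholesterol is made from acetyl-CoA through mevalonate, and HMGCS1 and MVK act at the start of that route. Of 18 measured genes of cholesterol synthesis 2 fell, but the shift ran through the list. Its median was -0.72, and in 14 of 18 every IDH2R140W library was below every Parental library, as in 14.2% of all genes. HMGCS1 stood at 170, 128 and 162 TPM in Parental and at 73.6, 67.2 and 55.1 in IDH2R140W, a fall of 1.22 (SE 0.11, adjusted p = 2.09e-06). MVK fell from 22.2, 19.5 and 25.7 TPM to 7.4, 8.15 and 7.73. Neither gene's groups overlapped. SQLE, which oxidises squalene, was at 136 ± 1.57 and 83.5 ± 1.29 TPM, under 2-fold. The number that fell differed between settings: it was 5 without Parental replicate 2, 4 without IDH2R140W replicate 2, 4 without Parental replicate 2 and IDH2R140W replicate 3 together, and 5 after median-ratio scaling.

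Against the other edited lines 3 genes of the list were lower, HMGCS1 among them, beside 2.92% of all genes. The median was -0.62 against -0.14 for all genes. None of the 3 passed without IDH2R140W replicate 3 or after median-ratio scaling. The promoters of HMGCS1 and MVK held no match to the sterol element TCACNCCAC in the window searched, which 1.13% of all promoters hold. Of the measured cholesterol synthesis, uptake and SREBP control genes with a promoter, 4.17% held it (1 of 24). At so low a share the lack of a match in these promoters cannot speak to sterol control. Of 20 genes of fatty acid synthesis AGPAT2 and SCD5 rose, and without Parental replicate 2 or IDH2R140W replicate 1 a further 2 fell.

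TF-1 cells depend on signals through CSF2RB, the beta chain shared by the receptors for GM-CSF, interleukin-3 and interleukin-5. The line was grown without GM-CSF, so its own ligands and receptors were listed next. Of 16 measured haematopoietic growth factor genes 6 rose, with a median of 0.65, beside 2.68% and 0.03 for all genes. OSM, a ligand of the interleukin-6 family, stood at 8.24, 9.86 and 8.71 TPM in Parental and at 34.6, 40.3 and 34.5 in IDH2R140W. CSF1, the macrophage growth factor, went from 24.0, 16.6 and 19.4 TPM to 57.0, 55.3 and 40.9, and LIF from 14.7, 9.45 and 11.7 to 29.2, 27.2 and 20.3. The groups did not overlap for any of the 3. The log2 differences were 1.91, 1.31 and 1.04 (adjusted p from 2.21e-06 to 0.000504), and that of LIF fell under 1 without Parental replicate 2. SPP1, which encodes osteopontin, ANGPT2 and PDGFA were the other genes that rose.

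OSM, LIF and CSF1 were also higher in IDH2R140W than in each of the other edited lines, by 2.75, 3.0 and 2.24 against their mean (adjusted p from 2.12e-09 to 2.36e-08). LIF was at 25.5 ± 4.65 TPM in IDH2R140W and between means of 1.57 and 4.13 in the other edited lines. CSF2, which encodes GM-CSF itself, stood at 5.30, 5.09 and 4.6 TPM in Parental and at 9.50, 10.1 and 11.7 in IDH2R140W. The groups did not overlap, but the difference of 0.93 was under 2-fold (adjusted p = 7.83e-05). IDH2R172K had a like level of CSF2, 9.64 ± 0.782 TPM, whereas IDH1R132H was at 1.35 ± 0.182 and IDH2R140Q at 1.89 ± 0.0902. Secretion was not measured.

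Among 22 measured cytokine receptor chains IL1RL1, CSF2RB and IL5RA rose and 2 fell, TNFRSF1B among them. CSF2RB stood at 77.3, 50.1 and 72.2 TPM in Parental and at 186, 186 and 130 in IDH2R140W (log2 difference 1.32, adjusted p = 1.78e-05). IL5RA, which pairs with it in the interleukin-5 receptor, went from 2.13, 3.22 and 2.51 TPM to 10.5, 8.60 and 8.99. No library of one group reached the other for either gene. Of 19 STAT5 target genes OSM and LIF rose and ID1 fell, and without Parental replicate 2 OSM alone was called. The feedback inhibitors CISH, SOCS2 and SOCS3 were at 39 ± 1.64, 45.7 ± 2.17 and 23.4 ± 3.57 TPM against 49.2 ± 2.72, 52.2 ± 0.775 and 35.6 ± 5.36 in Parental, all under 2-fold. Of 22 genes that respond to ERK signalling EGR3, FOSB and FOS rose and ETV4 and ETV1 fell, and the call of FOS failed without IDH2R140W replicate 1.

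Chemokines attract blood cells, and CCL2 draws monocytes. CCL2 (chr17:34255218-34257203) had the largest rise in the comparison under the rule for named genes. It stood at 3.70, 2.23 and 1.96 TPM in Parental and at 68.8, 68.7 and 74.5 in IDH2R140W, a rise of 4.33 on the log2 scale (SE 0.17, adjusted p = 1.29e-09). The IDH2R140W libraries were close to each other and far above Parental. In the other edited lines CCL2 was at 23.6 ± 4.14 TPM (IDH1R132H), 5.07 ± 0.975 (IDH2R140Q) and 23 ± 1.71 (IDH2R172K), each lower than IDH2R140W. Of 27 measured NF-kB factors and inflammatory targets 6 rose, beside 2.68% of all genes. All of them were chemokines, namely CCL2, CCL7, CCL1, CCL4, CXCL3 and CCL3. The call of CXCL3 failed without Parental replicate 1, and only 2 genes rose when a level of 5 TPM was required. CCL7, next to CCL2 on the chromosome, was listed at 0 in Parental and stood at 2.39, 3.61 and 6.40 TPM in IDH2R140W. CXCL8, the neutrophil chemokine, is in the table under its older symbol IL8 and was looked up after the list was counted. IL8 rose from 2.65 ± 0.462 to 21.4 ± 1.45 TPM and was higher than in each other edited line.

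Several of the largest differences belonged to no list. Metallothioneins bind zinc and copper. MT1G (chr16:56666731-56668065) stood at 4.94, 8.12 and 8.53 TPM in Parental and at 74.6, 75.2 and 79.7 in IDH2R140W, a rise of 3.27 (SE 0.19, adjusted p = 3.53e-08). In the other edited lines it was at or below Parental, at 5.01 ± 0.715, 0.573 ± 0.206 and 0.683 ± 0.308 TPM, and the difference from their mean, 4.95, was the largest upward one under the rule (adjusted p = 6.18e-11). MT1X, MT2A and MT1F rose as well, from 29.8 ± 3.71 to 87.6 ± 9.57, from 96.1 ± 26.4 to 236 ± 27.0 and from 1.36 ± 0.475 to 10.8 ± 0.864 TPM. All 4 measured members of the family rose against Parental, but MT2A was under 2-fold against the other lines. The metallothioneins are close copies of one another, and reads may be split among them with error.

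ALB, which encodes albumin, went from 0.887 ± 0.388 to 16.6 ± 3.43 TPM, and HPGD, which inactivates prostaglandins, from 2.33 ± 1.07 to 23.5 ± 0.885. Both were higher in IDH2R140W than in each other edited line. SERPINE2, an inhibitor of serine proteases, rose from 3.10 ± 0.359 to 31.6 ± 3.95 TPM, but it lay between means of 25.2 and 53.9 in the other edited lines. FAM178B fell from 57.2 ± 9.39 to 1.06 ± 0.186 TPM and had a mean of 2.53 or below in all edited lines. GGT5, which converts leukotriene C4, went from 18.7 ± 2.02 to 0.707 ± 0.160, and the long noncoding RNA UCA1 from 10.9 ± 1.23 to 0.350 ± 0.141, again with low levels in all edited lines. XBP1, a transcription factor of the unfolded protein response named after its values were seen, rose from 189 ± 11.1 to 462 ± 8.82 TPM and passed against each edited line. ADCYAP1, which encodes the neuropeptide PACAP, was at 39.8 ± 4.44 TPM in IDH2R140W and 16.9 ± 3.82 in Parental, and had a mean of 7.08 or below in the other edited lines. Of the named falls, AC107016.2 was weak, with Parental libraries at 22.5, 31.0 and 7.71 TPM and an adjusted p of 0.0455 that was lost under 10 alternatives.

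A few genes were silent or low in IDH2R140W and raised in the other edited lines. BMPER, which binds bone morphogenetic proteins, was at 0.630 ± 0.555 TPM in Parental and 0.640 ± 0.270 in IDH2R140W, against 44.3 ± 4.14, 10.7 ± 0.620 and 38.5 ± 2.19 in IDH1R132H, IDH2R140Q and IDH2R172K. VSIG4, a complement receptor, was at 8.97 ± 1.5 and 4.34 ± 0.506 TPM, against 71.9 ± 1.96, 27.3 ± 0.0153 and 69.9 ± 3.05 in those lines. The differences from their mean were -4.08 and -3.31 (adjusted p = 3.39e-10 and 3.11e-11). Of 18 measured megakaryocyte and platelet genes 9 were lower than in the other edited lines, beside 2.92% of all genes. The list median was -0.96, beside -0.14 for all genes. SELP, a platelet adhesion receptor, stood at 3.30 ± 0.770 TPM in IDH2R140W and at 24.0 ± 2.44, 23.1 ± 1.11 and 47.7 ± 5.43 in the other edited lines, with 2.00 ± 0.546 in Parental. F13A1, clotting factor XIII, was at 4.52 ± 0.849 TPM in IDH2R140W, near the 3.65 ± 1.13 of Parental, and between means of 13.5 and 62.6 in the other edited lines. The calls of MMRN1 and GP1BA among the 9 failed without IDH2R140W replicate 3. Against Parental ITGB3 rose and GP9 fell.

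Smaller groups changed in part. Of 18 stem and progenitor genes MYCN, ERG, CD38 and RUNX1 rose, with ERG, a transcription factor of blood stem cells, at 31.0, 17.0 and 30.7 TPM in Parental and 84.4, 83.9 and 47.4 in IDH2R140W. Without IDH2R140W replicate 1 only 2 of these 4 passed. LIN28B, IGF2BP1 and IGF2BP2 were the members that fell. Of 25 adhesion and matrix genes 5 rose, beside 2.68% of all genes. Among them CD44, the hyaluronan receptor, went from 195 ± 39.2 to 526 ± 106 TPM, which was still under the means of the other edited lines. Of 16 neutrophil and monocyte genes CTSG and CEBPA rose, and TYROBP, MPO and AIF1 fell. The call of CEBPA, a transcription factor of granulocytes, failed without Parental replicate 2 or without IDH2R140W replicate 1. TYROBP, a signalling adaptor of myeloid cells, stood at 219, 204 and 233 TPM in Parental and at 76.1, 75.3 and 83.3 in IDH2R140W, with no overlap. Of 9 sterol efflux genes NR1H2, a sterol-sensing receptor, and CH25H rose and APOC1, an apolipoprotein, fell.

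BTBD6 (chr14:105248490-105251093, plus strand), an adaptor of a ubiquitin ligase, was all but absent from this line. It stood at 8.58, 7.49 and 8.82 TPM in Parental and at 0, 0.15 and 0 in IDH2R140W, and the other 9 edited libraries lay between 7.72 and 13.4. Every IDH2R140W library was below every other library of the series, with a difference of -3.44 from the other edited lines (adjusted p = 9.88e-11). BTBD6 lies inside the span of BRF1, a gene on the minus strand (chr14:105209286-105315589), which was at 24.1 ± 3.08 TPM in Parental and 48.4 ± 5.53 in IDH2R140W. In the other edited lines BRF1 was at 43.5 ± 3.26 (IDH1R132H), 38.7 ± 3.02 (IDH2R140Q) and 37.8 ± 0.757 TPM (IDH2R172K), so its higher level was not particular to IDH2R140W. The strand setting of the counting is not given in the sources used here, so reads of BTBD6 and BRF1 may not be told apart.

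Genes were also read in their order along the chromosomes, as medians over runs of 25 neighbouring protein-coding genes. The most extreme runs were chosen by their values and are a description with no test. The lowest run against Parental lay on chromosome 20, in a stretch that begins at PYGB, with a median of -0.73, and 12 of its 25 genes fell. It holds ID1, DNMT3B and ASXL1, a chromatin regulator mutated in myeloid leukaemia, so the falls of ID1 and DNMT3B given above stand within a stretch where neighbours were lower too. ASXL1, PDRG1 and, on other runs, INF2 and CD40 were picked after their values were seen. ASXL1 went from 121, 112 and 107 TPM in Parental to 41.7, 34.2 and 24.8 in IDH2R140W, and PDRG1 from 138, 155 and 138 to 41.6, 42.7 and 50.3. The same run had medians of -0.33, -0.38 and -0.23 in IDH1R132H, IDH2R140Q and IDH2R172K against Parental.

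On chromosome 14 the run from ZNF839 to CEP170B (chr14:102317377-104896770) was the highest against the other edited lines, at 0.51, and stood at 0.82 against Parental. All 25 genes were above 0 and 7 rose, among them INF2, a formin that builds actin filaments, from 36.6, 28.0 and 28.1 to 62.8, 83.4 and 63.2 TPM. The highest run against Parental, from ZNF653 to ZNF709 on chromosome 19 (chr19:11483427-12513854), held 10 risen zinc finger genes at a median of 0.95. Its medians were 0.96, 0.98 and 1.00 in the other edited lines, in the order above. The lowest run against the other lines, on chromosome 20 from STK4 to ELMO2 (chr20:44966474-46432985), was at -0.86, although it was at 0.01 against Parental and at 0.85, 0.97 and 0.61 in the other lines against Parental. It holds MMP9 and CD40, which were lower in IDH2R140W than in each other edited line. Over the 324 tested protein-coding genes of chromosome 20, the median difference of IDH2R140W from the other edited lines was 0.51 below that of all other chromosomes. Measured the same way against Parental, chromosome 20 stood at -0.10 in IDH2R140W and at 0.35, 0.51 and 0.23 in IDH1R132H, IDH2R140Q and IDH2R172K. Copy number was not measured.

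**Figure D5:**
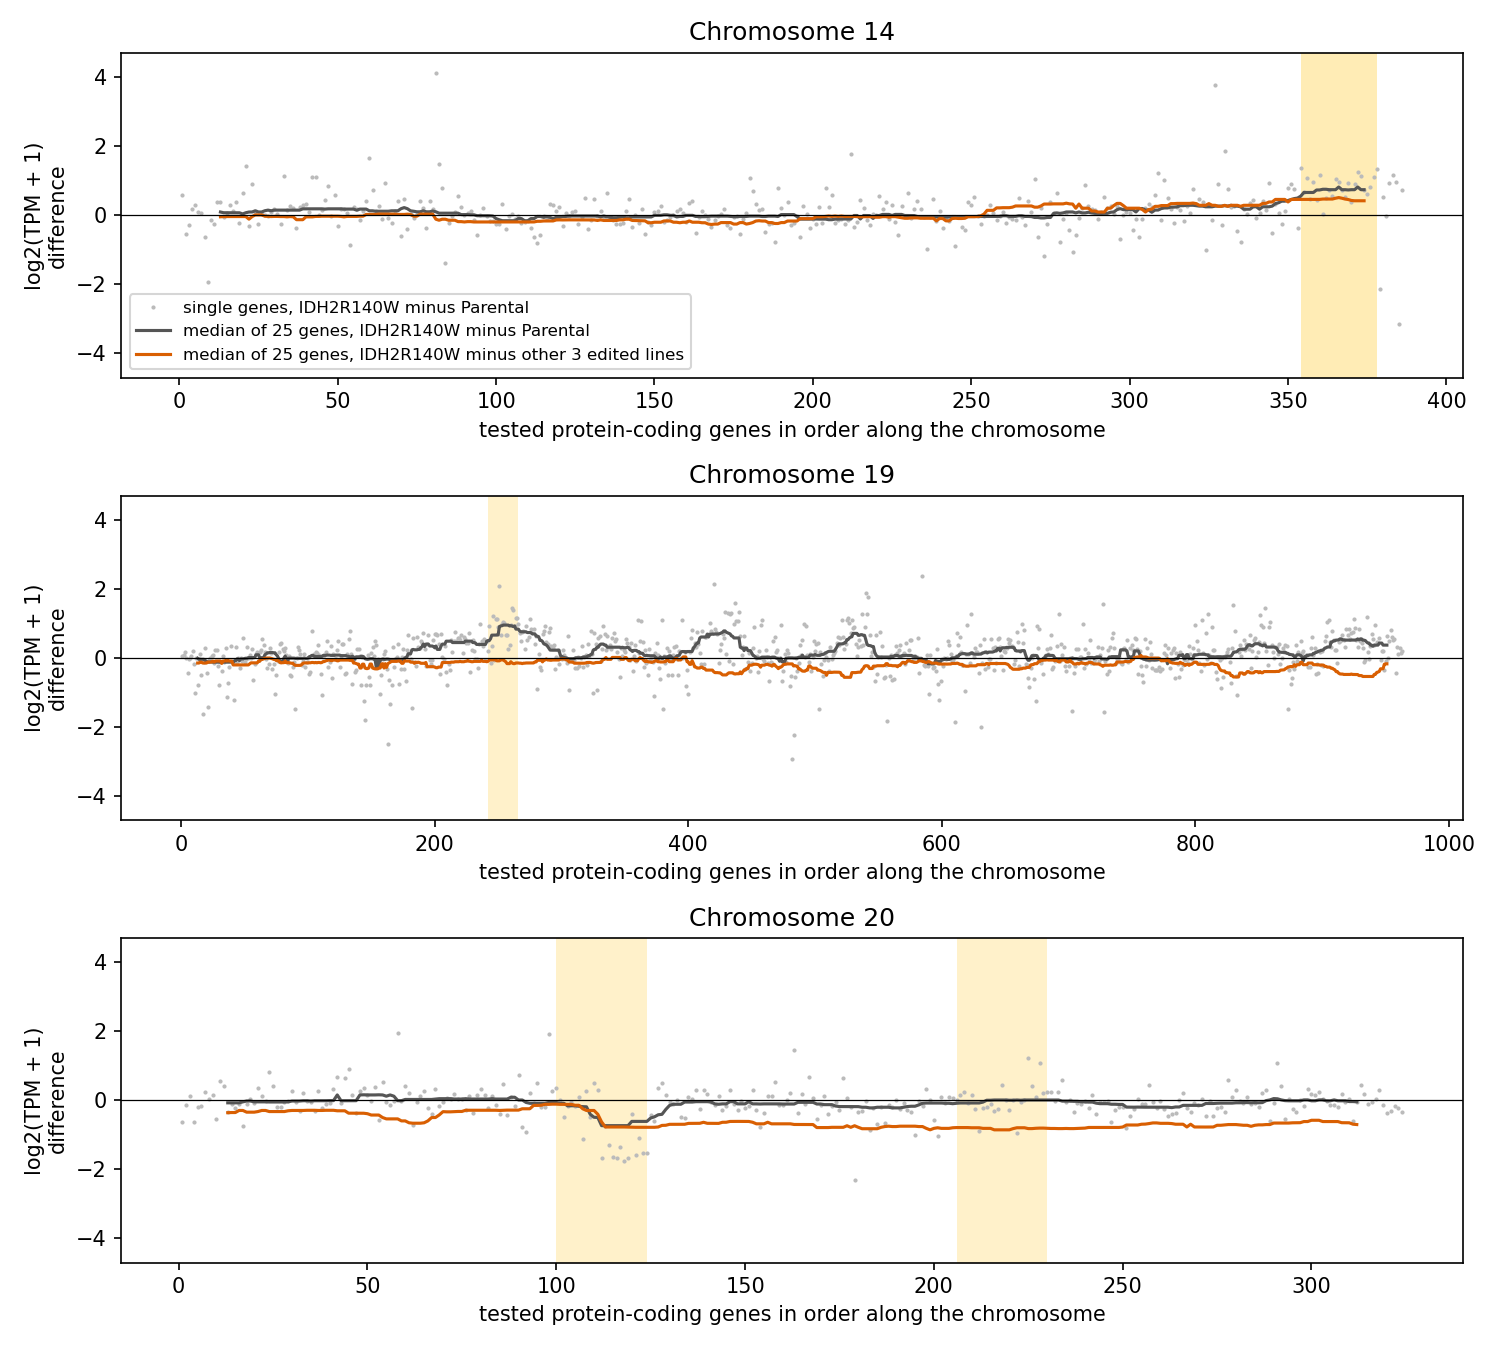
Difference in log2(TPM + 1) along chromosomes 14, 19 and 20, with single genes as points (IDH2R140W minus Parental) and medians over 25 neighbouring genes as lines, grey against Parental and orange against the other 3 edited lines, and the runs named in the text shaded. The grey line dips to -0.73 in the first shaded run of chromosome 20, and the orange line stays below 0 along that chromosome.

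Markers of other cells were looked up in the same table. Of 15 lymphocyte markers 7 were measured, and their summed level was 72.5 to 97.0 TPM in Parental and 21.4 to 28.6 in IDH2R140W. CD3D, a T cell receptor subunit, made most of that sum and fell from 68.4 ± 12.4 to 9.09 ± 1.72 TPM, while its partners CD3E and CD3G were below the filter and MS4A1 and CD79A of B cells were listed at 0. TRAC, a T cell receptor chain, rose from 0.13, 0.17 and 0 TPM in Parental to 1.3, 2.21 and 1.16 in IDH2R140W, by 1.20 on the log2 scale (adjusted p = 0.00186). The other 5 measured markers were not called, and the list median was 0.05. Of 16 fibroblast, endothelial and epithelial markers 6 were measured, limma called 0 of them with 4 at an unadjusted p under 0.05 (34.9% of all genes), and the sum was 621 to 656 TPM in Parental and 559 to 588 in IDH2R140W. The measured ones were ACTA2, CDH5, KDR, CLDN5, KRT8 and KRT18, so part of this list was present. Against the other edited lines CDH5 and KDR were lower, beside 2.92% of all genes. COL1A1, COL1A2 and DCN were among those below the filter. The part of other cells in the gene groups above was not tested.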

How the data were processed

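Poly(A) RNA of 15 TF-1 libraries, 3 per genotype, was sequenced after a directional library preparation, per the labels' protocols. The authors deposited 1 table of TPM values per gene and library. STAR 2.7.3, HTSeq, RSEM, DESeq2 and hg38 are named in the submitters' processing notes without their roles, and the annotation is not given in the sources used here. TPM keeps no depth, so read depth is unknown, no counting error can be given and no count test was run.

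The 63568 rows were summed to 56624 symbols, and 5 rows whose symbols had turned into dates were left out. Symbols at 1 TPM or more in at least 3 libraries (14881, of which 225 lay on more than 1 row) were put on the log2(TPM + 1) scale and fitted over all 15 libraries with limma 3.58.1 in R 4.3.3, with 1 mean per group and an intensity trend. Adjusted p-values are Benjamini-Hochberg values over all 14881 symbols. Coordinates are from GENCODE release 29 (hg38), which matched 84.1% of the tested symbols. The script was tested on simulated data.

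Genes were named by rule: the 14 largest rises and falls against Parental, and the 8 largest each way against the other edited lines that passed against each line, among changed genes of 10 TPM or more on 1 row whose groups did not overlap, then members of gene lists beside their list. The members and the 40 lists were chosen with earlier results of these data known. The rankings left out genes listed at 0 in every library of either side of a comparison. Alternatives changed the pseudocount, filter, scaling, variance model, libraries in the fit, rows per symbol, replicate block and each library in turn. Deviations from the group means of same-numbered Parental and IDH2R140W libraries correlated at 0.223, -0.285 and -0.242 across genes. Those of different-numbered libraries correlated at values between -0.37 and 0.499. With so few libraries these values cannot decide whether replicate numbers pair the libraries. The main fit did not pair them. Some genes and a sequence are not reported here.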

Additional observations from a re-analysis of the deposited data

Results flagged for a closer look

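Genes are given here that moved one way against Parental in IDH2R140W and the opposite way in another edited line, where the difference between the lines itself passed limma. MT1G was higher in IDH2R140W than in IDH2R140Q by 5.63 and than in IDH2R172K by 5.54 on the log2 scale. The noncoding RNA RP11-750H9.5 was higher by 4.2 than in IDH1R132H and by 4.16 than in IDH2R140Q. ADCYAP1 was higher by 4.53, 2.35 and 3.40 than in IDH1R132H, IDH2R140Q and IDH2R172K. In the other direction, RP5-921G16.1 differed from IDH1R132H by -5.68 and LIN28B by -5.38. LINC01029 differed by -4.68, -2.97 and -5.23 from IDH1R132H, IDH2R140Q and IDH2R172K. These lines were grown in the same medium, and a difference between lines cannot be told apart from one between clones.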

How the results depend on the processing

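With a pseudocount of 0.1 the genes higher than Parental numbered 684 in place of 399, and against the other edited lines 280 were higher in place of 168 and 857 lower in place of 435. Leaving out 1 library in turn gave 372 to 513 genes higher and 292 to 362 lower against Parental. The fall of IDH1 against Parental went under 2-fold with library weights (-1.0 after rounding), ranged from -1.05 to -0.93 with 1 library left out, and was -0.92 without Parental replicate 2 and IDH2R140W replicate 3 together. The difference of IDH2 from the other edited lines, which did not pass, changed sign to 0.01 with median-ratio scaling and to 0.01 with quantile normalisation. Of changed genes against those lines 27.9% were higher, against 39.9% with median-ratio scaling and 44.2% with quantile normalisation. With the replicate block 710 genes changed against Parental and 601 against the other edited lines, and it changed none of the 208 calls of single genes. Without Parental replicate 2 and IDH2R140W replicate 3 together, 12 interferon-stimulated genes, 14 mast cell genes and 6 growth factor genes rose. Of the single genes recomputed, 104 of 125 against Parental and 67 of 83 against the other lines kept their call under every alternative that could test them. The estimate of library weights stopped before reaching its tolerance. The causes of the losses were not tested. TPM gives no depth, so differences of genes near 1 TPM are the least certain.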
